A study of Homo sapiens with 48 samples.

Results

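Nuclear-encoded genes of the mitochondrial respiratory chain were followed in human fibroblasts treated with TGFβ and IL-1β. Members were taken by name. A gene counted if its symbol began with NDUFA, NDUFB, NDUFC, NDUFS, NDUFV, SDH, UQCR, COX4I, COX5, COX6, COX7, COX8 or ATP5, if it was not an antisense or pseudogene name, and if its mean over all 48 libraries was at least 5 CPM (counts divided by the library total and scaled to one common size). Of 29744 genes in the table, 106 matched by name, 8 of these were left out as antisense or pseudogene names, 12 lay under 5 CPM, and 86 remained. The 86 were 76 subunits and 10 genes of assembly, and all 86 were tested in both arms of the study. NDUFA3 (5.48 CPM) lay just inside the threshold, and NDUFAF7 (4.61 CPM) and ATP5S (3.71 CPM) lay just outside it. The tissue-restricted or oxygen-dependent isoforms COX4I2, COX6A2, COX6B2 and COX8C were at 0 counts in every library, and NDUFA4L2 was at 0.209 CPM.

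All cells were IL11mNG fibroblasts, made from the immortalized human fibroblast line CRL-4001, which the labels call skin, by knocking a fluorescent mNeonGreen reporter into IL11 and sorting single-cell clones. Cells of the CRISPRko arm carried Cas9 and were infected with a non-targeting guide (CRISPRko control) or a GLIS3 guide (GLIS3 CRISPRko). Cells of the CRISPRa arm carried dCas9–VP64, an inactive Cas9 fused to a transcriptional activator, with a control or a GLIS3 guide. In that arm the titles and the descriptions of the samples name opposite groups as the control, so the groups are called by their descriptions, VP64_Ctrl and VP64_A. A cell line entry that names Cas9 and a GLIS3 knockout stands on every sample, controls and CRISPRa cells included. Infected cells were selected with antibiotics and kept as bulk populations, so a GLIS3 CRISPRko library averages over cells with different edits. Both cytokines were used at 10 ng/ml, with exposures of 0, 6, 12 or 24 h staggered so that collection fell at one time. Each of the 16 conditions had 3 libraries. The study describes its in vitro replicates as independent biological ones, while the labels do not say how these libraries were cultured, so p-values are read as measuring the spread between these samples. In bulk samples, fewer cells of a kind and less RNA per cell cannot be told apart.

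The respiratory chain sits in the inner mitochondrial membrane. Complex I (NADH dehydrogenase) and complex II (succinate dehydrogenase, shared with the citric acid cycle) pass electrons through ubiquinone to complex III and on, by cytochrome c, to complex IV (cytochrome c oxidase). Complexes I, III and IV pump protons, and complex V (ATP synthase) uses the gradient to make ATP. Most subunits are encoded in the nucleus and imported, and a few catalytic subunits of complexes I, III, IV and V are encoded in mitochondrial DNA. Those mitochondrially encoded protein genes were not analysed here.

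The libraries held 2321990 to 10661004 estimated counts. GLIS3 was at 1.55 to 8.63 CPM in CRISPRko control, 0.146 to 2.46 in GLIS3 CRISPRko, 2.31 to 5.29 in VP64_Ctrl and 13.5 to 38 in VP64_A. In the edgeR quasi-likelihood fit, GLIS3 differed between GLIS3 CRISPRko and control by -2.55 log2 at 0 h (adjusted p = 0.0355) and by -1.68 over the 4 times, and between VP64_A and VP64_Ctrl by 2.71 to 3.61 log2 at each time. The CRISPRa arm thus followed the descriptions and not the titles. Fibroblast markers summed to 20001 to 57697 CPM, with 9 of 10 above a median of 1 CPM (TWIST1 was not). Epithelial markers summed to at most 3.64 CPM in the CRISPRko arm, 2.27 to 13.9 in VP64_Ctrl and 15.2 to 85.3 in VP64_A, with EPCAM at 0. Immune markers summed to 16.9 to 80.6 CPM, with CD3E, LYZ and AIF1 at 0, endothelial markers to at most 7.02, and melanocyte markers to at most 1.11, with TYR at 0. In 4 libraries (replicate 1 of CRISPRko control at 6 h, replicate 3 of GLIS3 CRISPRko at 0 h and at 24 h, replicate 3 of VP64_Ctrl at 0 h) the root-mean-square log2 deviation from the condition was 0.425 to 0.455, against 0.169 to 0.411 in the other 44. These 4 are called the libraries that stood apart, and each held the highest share of respiratory chain counts of its condition. At most 1 was taken per condition. Replicate 1 of GLIS3 CRISPRko at 24 h (0.411) was thus kept, and it held the lowest share of its condition. Counts of members are given with and without the 4.

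Promoter windows are shown because short motifs near their starts are a feature that the naming rule did not use. RefSeq promoters of 300 bases (250 before and 50 after a gene's start, GRCh38.p14) were found for 72 of the 86 members, and 14 had no entry in the table. Each motif was searched on both strands, and a gene counted if any of its start sites held it. The NRF1 core GCATGCGC, a site of the nuclear respiratory factor NRF1, was in 17 members (23.6%), in 3.68% of all 27305 genes with a promoter and in 7.04% of 6251 other expressed genes. CCGGAAGT, the core bound by ETS factors such as GABPA, was in 12 members (16.7%), against 4.95% of all genes and 11.9% of other expressed genes. AAGATGGCG, the YY1 motif, was in 9 members (12.5%), against 2.14% and 5.82%. At least one of these stood in 30 members (41.7%), against 9.95% and 22.6%. TGGGGGGT, a core bound by GLIS factors, was in 0 of the 72 members and in 1.79% of all 27305 genes with a promoter. This says only that these letters are not in the members' windows. The NRF1 core overlaps its own reverse complement, so adjoining matches are not separate. Of the members called lower at some time after the cytokines, 12 of 32 with a promoter held 1 of the 3 motifs, and of the others 18 of 40 did. Windows of 28 bases are printed 5′ to 3′ on the gene's strand, with the motif in capitals. They come from members of 4 complexes described below.
NDUFS7 (complex I, NRF1 core, chr19:1383824-1383851, plus strand): tccggtttccGCATGCGCtccgagccgc
NDUFS7 (complex I, YY1, chr19:1383915-1383942, plus strand): gccgaggccAAGATGGCGgtgctgtcag
NDUFA7 (complex I, YY1, chr19:8321343-8321370, minus strand): cgcggacggAAGATGGCGtccgccaccc
SDHD (complex II, NRF1 core, chr11:112086755-112086782, plus strand): ctgtgtttgcGCATGCGCgacgggtgtg
SDHD (complex II, ETS on the opposite strand, chr11:112086785-112086812, plus strand): ccgcctctcgACTTCCGGttcacccagc
UQCRH (complex III, ETS on the opposite strand, chr1:46303641-46303668, plus strand): agtgtgccgcACTTCCGGccagatcgcc
UQCRC1 (complex III, YY1, chr3:48609605-48609632, minus strand): tgcagctggAAGATGGCGgcgtccgtgg
ATP5G2 (complex V, NRF1 core, chr12:53676106-53676133, minus strand): cccgggtcacGCATGCGCtgagccttcc
ATP5A1 (complex V, ETS on the opposite strand, chr18:46098328-46098355, minus strand): gaggggcagtACTTCCGGgtcaggtggg

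The YY1 windows of NDUFS7, NDUFA7 and UQCRC1 lay 15 to 24 bases past the start, with the capitals spelling an ATG, and the NRF1 and ETS windows lay before it. In SDHD the NRF1 core began 108 bases before the start and the ETS core 78 bases before it.

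Between genes, levels were compared in TPM, which is scaled for transcript length. Over the 48 libraries the members' mean levels ran from 4.76 TPM (NDUFAF4, an assembly factor of complex I) to 965 TPM (ATP5B, the catalytic β subunit of ATP synthase), with a median of 117. Complex V (15 genes, median 249 TPM) and complex IV (13 genes, 241) stood higher than complex III (8 genes, 86.7), complex I (44 genes, 78.5) and complex II (6 genes, 50.8). The ranges of the complexes overlapped. Within complex I, the 7 core subunits had a median of 94.5 TPM, the 30 accessory subunits 82.7 and the 7 assembly genes 11.9. After ATP5B came COX4I1 (729 TPM), a regulatory subunit of cytochrome c oxidase, ATP5A1 (712), the α subunit of ATP synthase, ATP5E (701) and COX8A (601). UQCRC1, the core 1 protein of complex III, stood at 552 TPM, while its partner UQCRC2 stood at 87.1.

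Where isoforms exist, the widely expressed form was the higher one. COX7A2 was at 241 TPM and COX7A1, known as the heart and muscle form, at 27.7. The 3 genes ATP5G1, ATP5G2 and ATP5G3 encode one mature subunit c, the ring that turns in ATP synthase, and they shared the level more evenly, with median shares of 38.8%, 32.9% and 28% over the libraries. Counts of SDHA, the flavoprotein of succinate dehydrogenase, are uncertain because the pseudogenes SDHAP2 (12.3 CPM) and SDHAP1 (6.39 CPM) hold near copies of it.

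**Figure D1:**
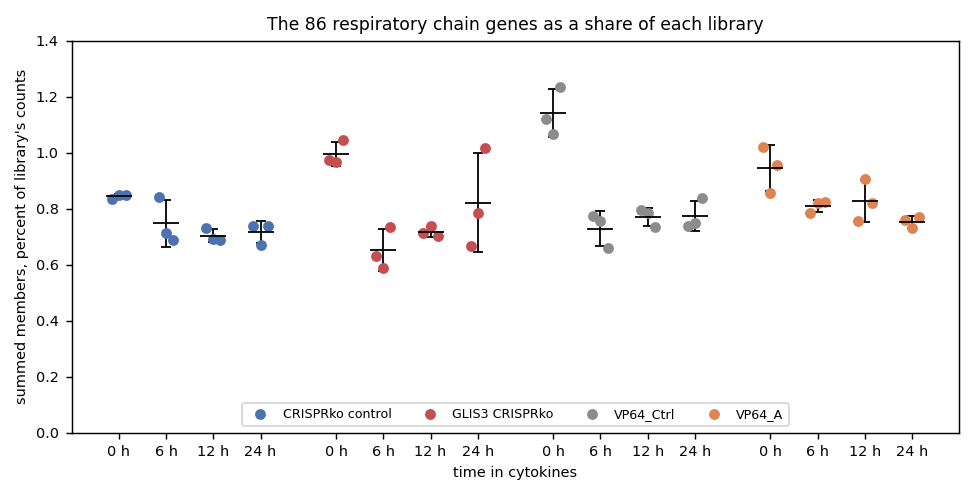
Share of each library's counts that came from the 86 members (y axis, percent) by hours with TGFβ and IL-1β (x axis), with 1 point per library and bars at the mean ± SD of 3 libraries in each of the 4 groups. The untreated VP64_Ctrl libraries are highest, at 1.07 to 1.24%, and the treated libraries run from 0.587 to 1.02%.

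The members together took 0.587 to 1.24% of a library's counts. Before the cytokines this share was 0.833 to 0.849% in CRISPRko control, 0.966 to 1.05% in GLIS3 CRISPRko, 1.07 to 1.24% in VP64_Ctrl and 0.857 to 1.02% in VP64_A. At 6 h it was 0.688 to 0.843% in CRISPRko control, 0.587 to 0.735% in GLIS3 CRISPRko, 0.658 to 0.773% in VP64_Ctrl and 0.783 to 0.824% in VP64_A. The ranges at 0 and 6 h overlapped in CRISPRko control alone, whose highest library at 6 h was a library that stood apart. Replicates 2 and 3 at 6 h, at 0.712 and 0.688%, lay under all its 0 h libraries. At 24 h the shares were 0.670 to 0.738%, 0.666 to 1.02%, 0.739 to 0.837% and 0.729 to 0.770% in the same order, and the one overlap with 0 h was in GLIS3 CRISPRko, whose highest library at 24 h was a library that stood apart. In VP64_Ctrl the 50 most abundant genes took 23.1 to 34.9% of counts at 0 h and 38 to 42.5% at 6 h, without overlap. In GLIS3 CRISPRko they took 30.7 to 39.3% at 0 h and 39.9 to 44.5% at 6 h, also without overlap. In CRISPRko control (39.5 to 39.9% and 33.8 to 42%) and in VP64_A (37.9 to 41.2% and 37.2 to 39.6%) the ranges at 0 and 6 h overlapped. The part of these genes in the result was not tested.

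The cytokine response of single members was tested against the 0 h libraries of the same group. Calls are at an adjusted p under 0.05 over all genes tested (10962 in the CRISPRko arm, 10980 in the CRISPRa arm), and the 3 times of a group share their 0 h libraries. In CRISPRko control, 6 members fell at 6 h (median of the 86 -0.07 log2, all genes -0.03, with 5.6% of all genes lower), 9 at 12 h (median -0.20 against -0.01, 8.27% of all genes lower) and 3 at 24 h (median -0.06 against 0.01, 3.73% lower). In GLIS3 CRISPRko, 12 fell at 6 h (median -0.26 against -0.10, 10.8% of all genes lower), 15 at 12 h (-0.24 against -0.05, 13% lower) and 20 at 24 h (-0.27 against 0.02, 6.78% lower). None rose in either group. Of all 10962 genes, 1130, 1243 and 716 were called higher in CRISPRko control and 1443, 1574 and 994 in GLIS3 CRISPRko. As a share of the 86, the members that fell lay somewhat above the background at 6 and 12 h in both groups. At 24 h the share lay just under the background in CRISPRko control and well above it in GLIS3 CRISPRko. These counts moved when single libraries were left out, as given below. Over all genes, fold change was also compared with transcript length, taken from counts over TPM. The Spearman correlations at the 3 times were 0.099, 0.088 and 0.00014 in CRISPRko control and 0.169, 0.141 and 0.161 in GLIS3 CRISPRko. The part of transcript length in these counts was not tested.

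In VP64_Ctrl, 3 members fell at 6 h (median -0.09 against -0.05 for all genes, 12.6% of all genes lower), 5 fell and 1 rose at 12 h (-0.16 against -0.01, 11.5% lower and 15.3% higher) and 8 fell at 24 h (-0.27 against 0.00, 5.57% lower). In VP64_A, 4 fell at 6 h (-0.06 against -0.01, 5.93% lower), 3 fell and 1 rose at 12 h (-0.06 against 0.01, 7.1% lower and 12.6% higher) and 6 fell and 1 rose at 24 h (-0.15 against 0.00, 4.55% lower and 9% higher). At 6 and 12 h these shares were at or under the background. No member rose in VP64_Ctrl at 6 or 24 h, where 1777 and 1140 of all 10980 genes were called higher. None rose in VP64_A at 6 h, where 1256 genes were called higher. Of the 97 calls over the 12 responses, 94 were lower and 3 higher. They fell on 41 members, and 45 members were called in none. Fold changes were small, with 912 of 1032 values within 0.5 log2 of no change. NDUFC1, NDUFS3, NDUFS8, NDUFB3, NDUFB6, NDUFB7, NDUFA2, SDHC, SDHD, UQCR10, UQCRC2, ATP5G1, ATP5G2, ATP5H, ATP5J and ATP5O, 16 members in all, had values below 0 in all 12 responses, and no member had values above 0 in all 12.

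The counts moved with the libraries and the scaling. Shares of all genes called were not worked out for the fits without libraries or on the TPM scale. The member counts of these fits therefore have no background beside them. Without the 4 libraries that stood apart, the members that fell numbered 5, 15 and 3 in CRISPRko control at 6, 12 and 24 h (1 member rose at 6 h and 1 at 12 h), 24, 25 and 30 in GLIS3 CRISPRko, 3, 4 and 13 in VP64_Ctrl and 5, 5 and 7 in VP64_A (1 rose at 12 h and 1 at 24 h).

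Single libraries moved the counts as well. In GLIS3 CRISPRko, without replicate 1 at 0 h 7, 6 and 4 members were called at 6, 12 and 24 h. Without replicate 2 at 0 h there were 9 at 12 h and 6 at 24 h. Leaving out replicate 1 or 2 at 6 h gave 7 and 6 there, replicate 3 at 12 h gave 7, and replicate 1 or 2 at 24 h gave 13 and 9. In CRISPRko control at 12 h, any 1 of these libraries except replicate 3 at 0 h took the count to 4 or 5, and at 24 h it was 0 without replicate 2 at 24 h and 1 without replicate 2 or 3 at 0 h or replicate 1 or 3 at 24 h. In VP64_Ctrl, the count at 6 h was 7 without replicate 1 at 6 h and 1 without replicate 2 or 3. At 12 h it was 0, 3 and 2 without replicate 1, 2 and 3 at 12 h and 3 without replicate 1 at 0 h. At 24 h it was 13 without replicate 3 at 0 h, 3 without replicate 1 at 0 h, and 3, 3 and 5 without replicate 1, 2 and 3 at 24 h. In VP64_A, the count at 6 h was 2 without replicate 2 or 3 at 0 h or replicate 1 or 3 at 6 h. Leaving out replicate 2 at 0 h raised it to 9 at 12 h and 15 at 24 h, while at 24 h it was 3 without replicate 3 at 0 h and 4 without replicate 2 or 3 at 24 h.

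On the log2(TPM + 1) scale with limma, the median of all genes moved by -0.60 to 0.41 from its edgeR value. The members that fell then numbered 1, 10 and 1 in CRISPRko control, 61, 24 and 2 in GLIS3 CRISPRko, 79, 73 and 47 in VP64_Ctrl and 6, 7 and 13 in VP64_A, and none rose. Centred on each library's median gene, the same values gave 6, 11 and 3, then 11, 16 and 24, then 7, 6 and 8, and 6, 5 and 7 members lower in the same order, with 1 higher (VP64_A, 24 h). The members' median lay below that of all genes by 0.02 to 0.29 log2 in all 12 responses with edgeR, log2(TPM + 1) and centred TPM, and above it by 0.02 and 0.05 in VP64_A at 6 and 12 h with log2(TPM + 0.1) and by 0.04 in CRISPRko control at 6 h without the 4 libraries.

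**Figure D2:**
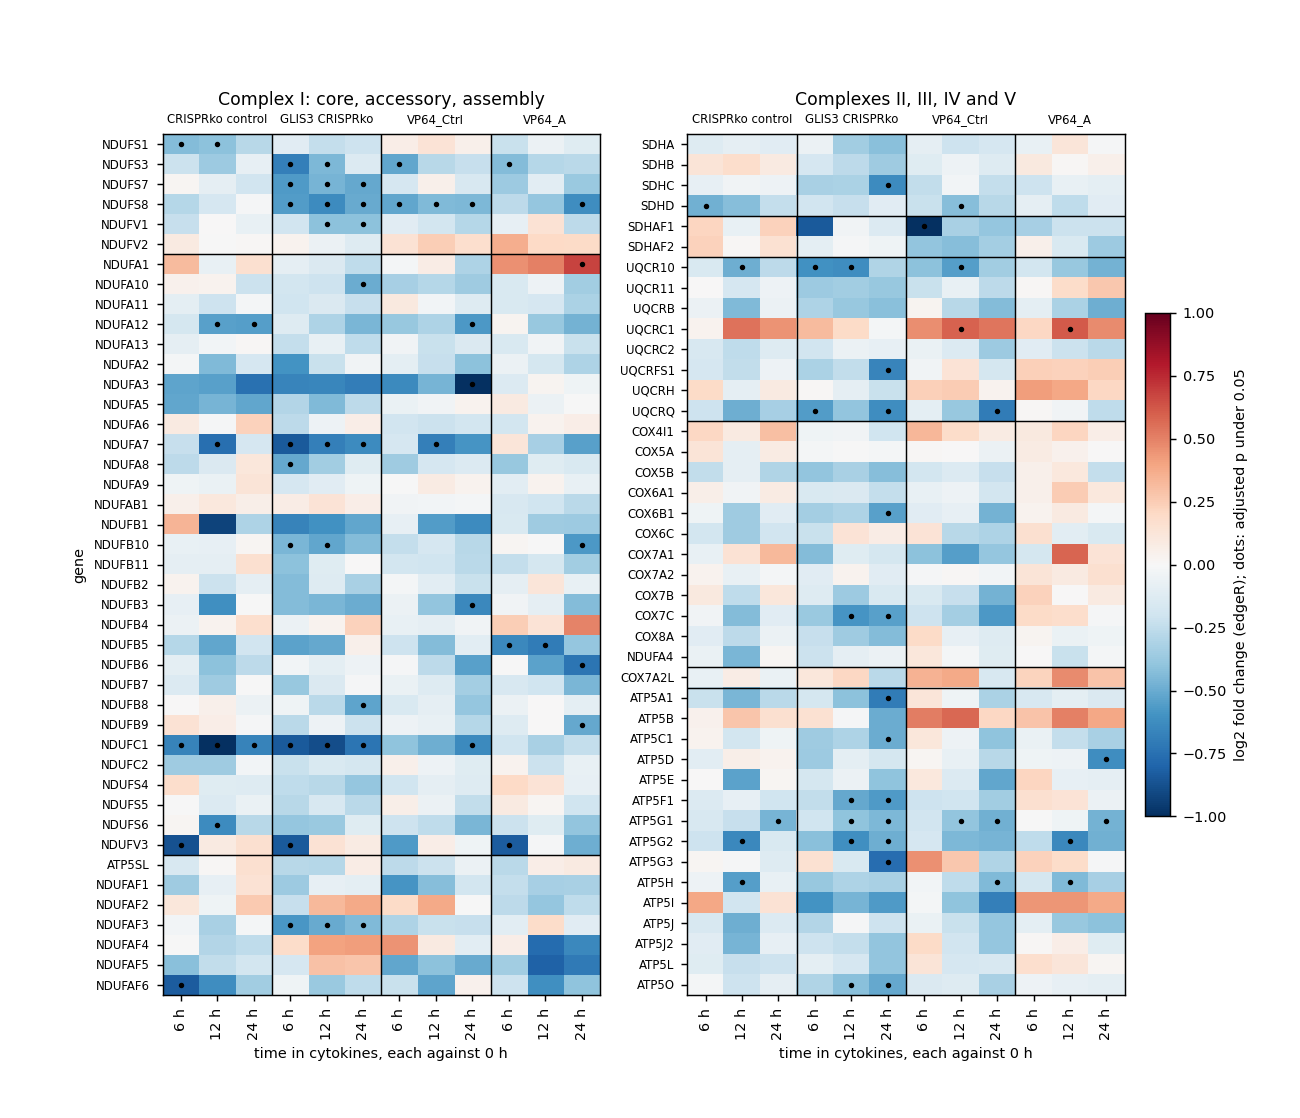
Log2 fold change (colour) of 85 of the 86 members (rows, grouped by complex) at 6, 12 and 24 h against 0 h in the 4 groups (columns), with dots on called values and a colour scale from -1 to 1. Most cells are pale, 89 of the 92 dots are on lower values, and 45 of the dots are in GLIS3 CRISPRko.

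Complex I holds 44 of the 86 members, and the shares of all genes given above are the background at each time for every complex. Of its 7 core subunits, which carry the flavin, the iron–sulphur clusters and the quinone site, 2, 2 and 0 fell at 6, 12 and 24 h in CRISPRko control, 4, 5 and 3 in GLIS3 CRISPRko, 2, 1 and 1 in VP64_Ctrl and 2, 0 and 1 in VP64_A. Their medians in GLIS3 CRISPRko were -0.56, -0.45 and -0.27 log2. Of the 30 accessory subunits, 2, 4 and 2 fell in CRISPRko control, 5, 3 and 4 in GLIS3 CRISPRko, 0, 1 and 4 in VP64_Ctrl and 2, 1 and 3 in VP64_A. Complex II had at most 1 of 6 lower at any time, complex III at most 2 of 8, and complex IV none outside GLIS3 CRISPRko. In complex V, 0, 4 and 7 of 15 fell in GLIS3 CRISPRko, where its median went from -0.24 at 6 h to -0.49 at 24 h, and at most 2 of 15 fell in any other group and time.

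NDUFC1, an accessory subunit of the membrane arm of complex I, was called lower in 7 of the 12 responses, as was NDUFS8. In CRISPRko control it stood at 27.5, 36.5 and 33 normalised CPM (CPM on the TMM-scaled library size) at 0 h and at 19.5, 13.7 and 14.1 at 12 h. Its 3 libraries at 12 h all lay under those at 0 h, and the difference was -1.03 log2 (SE 0.19, adjusted p = 0.00016, edgeR). In GLIS3 CRISPRko NDUFC1 went from 39.8, 35 and 32.4 normalised CPM to 17.1, 18.8 and 23.6 at 6 h, 22.4, 19 and 15.9 at 12 h and 21.2, 18.5 and 24.1 at 24 h. No treated library reached an untreated one, with differences of -0.84 (adjusted p = 0.00122), -0.89 (0.000263) and -0.73 log2 (0.00306). The 12 h call in CRISPRko control and all 3 calls in GLIS3 CRISPRko held with any 1 of their 6 libraries left out, but the 24 h call in GLIS3 CRISPRko was lost on the TPM scales (adjusted p up to 0.266). In CRISPRko control the calls of NDUFC1 at 6 h (-0.67 log2, adjusted p = 0.00802) and 24 h (-0.66, adjusted p = 0.0156) did not, and both were lost on the TPM scales (adjusted p up to 0.136 and 0.0598). The first was lost without replicate 2 at 0 h or replicate 3 at 6 h (adjusted p up to 0.0663) and the second without replicate 2 at 0 h or replicate 2 at 24 h (up to 0.106). In VP64_Ctrl it fell at 24 h by 0.63 log2 (SE 0.22, adjusted p = 0.0458), a call that DESeq2 did not make and that held in 1 of 6 fits with a library left out.

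NDUFV3, an accessory subunit next to the NADH-binding site, was low at 6 h. In CRISPRko control NDUFV3 was at 26.5, 25 and 19.7 normalised CPM at 0 h, at 13.1, 14.1 and 11.8 at 6 h, and at 26.8, 21.6 and 27.9 at 12 h. The 6 h libraries lay under all of those at 0 and 12 h, with a difference from 0 h of -0.87 log2 (SE 0.18, adjusted p = 0.000718). In GLIS3 CRISPRko it went from 21.6, 20.9 and 25.3 to 12.0, 9.42 and 15.8 at 6 h (-0.84, SE 0.20, adjusted p = 0.00206). In VP64_A it went from 28.4, 19.2 and 28.3 to 15.4, 13.4 and 13.7 (-0.83, SE 0.22, adjusted p = 0.00631). These 3 calls of NDUFV3 held with each library left out and under all 8 alternatives. In VP64_Ctrl the libraries overlapped (20.8, 25.9 and 13.5 at 0 h, 16.9, 10.8 and 12.2 at 6 h), and the value of -0.56 log2 did not pass (adjusted p = 0.056).

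NDUFS8, an iron–sulphur core subunit of the matrix arm, fell in 3 of the groups. In GLIS3 CRISPRko NDUFS8 stood at 102, 98.8 and 77.3 normalised CPM at 0 h and at 64.2, 60.8 and 54.0 at 12 h. The groups did not overlap, with a difference of -0.63 log2 (adjusted p = 0.00112). In VP64_Ctrl it went from 99.2, 93.1 and 101 to 67.3, 69.4 and 68.4 at 6 h (-0.52, SE 0.16, adjusted p = 0.0127). In VP64_A it went from 112, 123 and 124 to 76.0, 82.4 and 74.1 at 24 h (-0.62, SE 0.15, adjusted p = 0.0048). These 3 calls held with each library left out and under all 8 alternatives. In CRISPRko control the values of NDUFS8 were -0.29, -0.17 and -0.01 log2 at 6, 12 and 24 h, none of them called. NDUFS3, a core subunit that is assembled early, fell at 6 h in GLIS3 CRISPRko (-0.68 log2, adjusted p = 0.00312, lost without replicate 2 at 6 h, adjusted p = 0.0512) and in VP64_Ctrl (-0.52, adjusted p = 0.0111, kept in 3 of 6 fits with a library left out, adjusted p up to 0.0818). In VP64_A NDUFS3 fell at 6 h by 0.43 log2 (adjusted p = 0.0458), a call kept in 0 of 6 such fits (adjusted p up to 0.131).

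**Figure D3:**
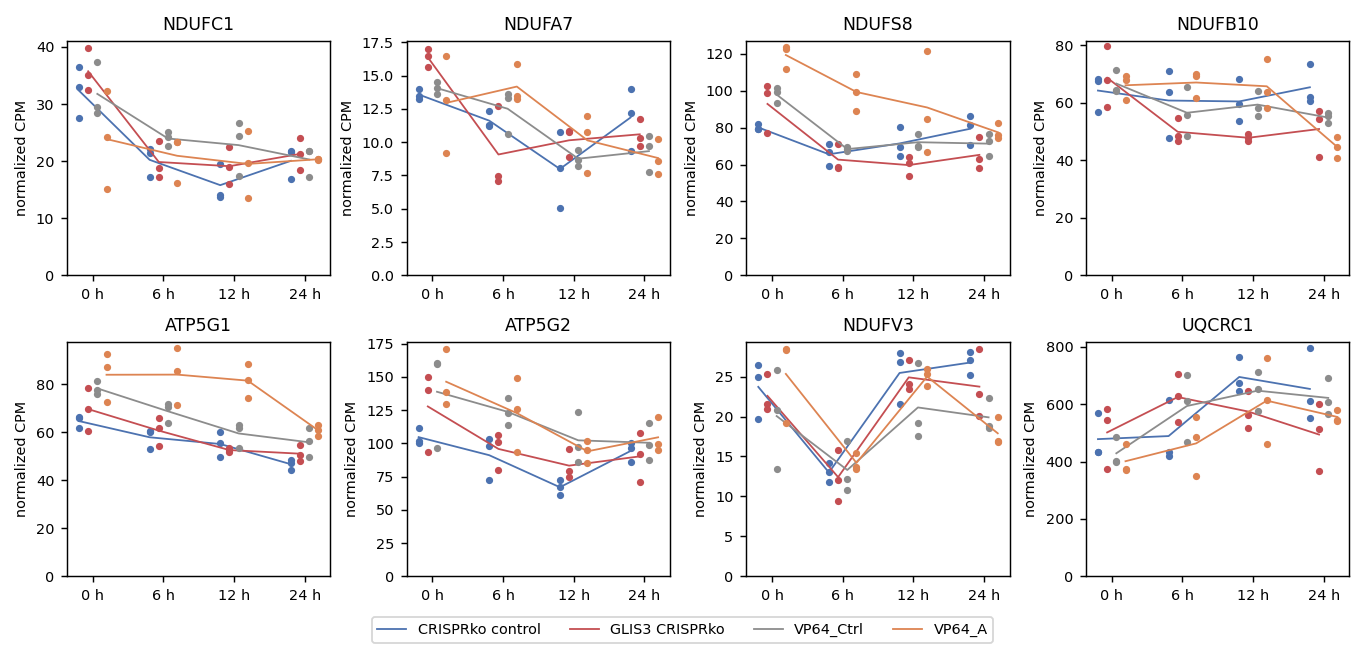
Normalised CPM (y axis, from 0) by hours with TGFβ and IL-1β (x axis) for 8 members, with 1 point per library and a line at the mean of 3 for each of the 4 groups. NDUFC1 lies lower after the cytokines, NDUFV3 has its low point at 6 h, and UQCRC1 lies higher at 12 h than at 0 h in the VP64 groups on this scale (on the TPM scale its 12 h difference in VP64_Ctrl was -0.01 log2).

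The other core subunits gave smaller values. NDUFS1, the largest subunit of complex I, was at 98.6, 80.2 and 91.0 normalised CPM at 0 h in CRISPRko control and at 67.1, 61.7 and 70.9 at 6 h. No 6 h library reached a 0 h one (-0.43 log2, adjusted p = 0.0267), while in GLIS3 CRISPRko the groups overlapped (-0.11, adjusted p = 0.602). NDUFS1 was called lower in 2 of the 12 responses, at 6 and 12 h in CRISPRko control. NDUFV1, which binds NADH and the flavin, fell in GLIS3 CRISPRko by 0.41 log2 at 12 h (adjusted p = 0.0176) and by 0.41 at 24 h (adjusted p = 0.0286), and was called in no other response. NDUFA7, an accessory subunit of the matrix arm at low counts (7.1 to 17 normalised CPM over the GLIS3 CRISPRko libraries), fell in GLIS3 CRISPRko by 0.84, 0.68 and 0.63 log2 at 6, 12 and 24 h. These calls of NDUFA7 held in 4, 4 and 0 of the 6 fits with a library left out, and the 24 h call in 3 of 8 alternatives. NDUFA7 also fell at 12 h in CRISPRko control by 0.76 log2 (edgeR adjusted p = 0.0298, kept in 1 of 6 such fits). In VP64_Ctrl it fell at 12 h by 0.69 log2 (edgeR adjusted p = 0.0218, kept in 4 of 6).

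In the CRISPRa arm, NDUFB10, an accessory subunit of the membrane arm, was at 67.9, 69.2 and 61.0 normalised CPM in VP64_A at 0 h and at 44.7, 48 and 40.9 at 24 h. It fell by 0.58 log2 (SE 0.14, adjusted p = 0.0042), with no overlap, and the call held with each library left out. NDUFA3 fell in VP64_Ctrl at 24 h from 7.36, 9.45 and 7.34 to 4.64, 3.56 and 2.68 normalised CPM. This was the largest change of a member in that group (-1.16 log2, SE 0.31, adjusted p = 0.00893), and it was lost without replicate 3 at 24 h (adjusted p = 0.0596). NDUFA1, a small membrane subunit needed for assembly, was the one complex I member that rose, from 55.6, 28.3 and 36.4 to 68.9, 64.5 and 59.9 normalised CPM at 24 h in VP64_A (0.67 log2, SE 0.19, adjusted p = 0.0132). This NDUFA1 call was lost without replicate 2 or 3 at 0 h or replicate 1 at 24 h (adjusted p up to 0.12), and on the TPM scale.

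Other accessory subunits were called in 1 or a few responses each. NDUFA12, of the matrix arm, was at 43.1, 40.6 and 40.6 normalised CPM in VP64_Ctrl at 0 h and at 28.3, 27.2 and 27.7 at 24 h. It fell by 0.58 log2 (SE 0.17, adjusted p = 0.018), without overlap, and was lost without replicate 1 at 24 h (adjusted p = 0.0567). In CRISPRko control NDUFA12 fell by 0.55 log2 at 24 h (adjusted p = 0.0346), a call kept in 1 of 6 fits with a library left out (adjusted p up to 0.152). NDUFB5, of the membrane arm, fell in VP64_A by 0.65 log2 at 6 h and 0.70 at 12 h (adjusted p = 0.0287 and 0.0167). The NDUFB5 calls held in 3 and 4 of 6 fits with a library left out (adjusted p up to 0.204 and 0.102). NDUFB9 fell in VP64_A at 24 h by 0.51 log2 (adjusted p = 0.0148, up to 0.0721 with a library left out). NDUFB3 fell in VP64_Ctrl at 24 h by 0.65 log2 (adjusted p = 0.029), which was lost without the libraries that stood apart. NDUFS6, a zinc-binding accessory subunit, fell in CRISPRko control at 12 h by 0.63 log2 (adjusted p = 0.0202, up to 0.109 with a library left out).

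Assembly genes of complexes I and II were called in few responses. NDUFAF3, which acts early in complex I assembly, fell in GLIS3 CRISPRko by 0.58, 0.51 and 0.44 log2 at the 3 times. NDUFAF6 fell in CRISPRko control at 6 h, from 12.8, 11.9 and 15.4 to 5.46, 9.55 and 7.61 normalised CPM (-0.83 log2, SE 0.23, adjusted p = 0.0112). The lowest of these NDUFAF6 libraries was one that stood apart. The call was lost without it, without replicate 3 at 0 h (adjusted p up to 0.11) and without all 4 such libraries. SDHAF1, needed for iron–sulphur insertion into SDHB, fell in VP64_Ctrl at 6 h (-1.0 log2, SE 0.32, adjusted p = 0.02) from 5.87, 10.6 and 10.0 to 5.44, 3.53 and 3.48 normalised CPM. That call held in 2 of 6 fits with a library left out (adjusted p up to 0.0988) and was lost without the libraries that stood apart.

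Among the subunits of complex II the membrane anchors carried the calls. SDHC was at 113, 111 and 82.9 normalised CPM in GLIS3 CRISPRko at 0 h and at 65.9, 58.9 and 73.0 at 24 h. The groups did not overlap, and SDHC fell by 0.63 log2 (SE 0.16, adjusted p = 0.00613), a call that held with each library left out and was lost on the TPM scale. SDHD fell in CRISPRko control at 6 h by 0.48 log2 (adjusted p = 0.0486, up to 0.189 with a library left out and not called by DESeq2) and in VP64_Ctrl at 12 h by 0.42 log2 (adjusted p = 0.0363, up to 0.116 with a library left out). The catalytic subunits SDHA and SDHB were called at no time in any group. Their values lay between -0.42 and 0.12 log2 for SDHA and between -0.35 and 0.18 for SDHB.

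In complex III, UQCR10, UQCRQ and UQCRFS1 were called lower and UQCRC1 higher on the count scale alone. UQCR10, a small subunit next to cytochrome c1, was at 56.2, 53.2 and 40.9 normalised CPM in GLIS3 CRISPRko at 0 h and at 35.3, 34.1 and 27.7 at 12 h. UQCR10 fell by 0.62 log2 there (adjusted p = 0.00525, lost without replicate 3 at 12 h, adjusted p = 0.0511), with no overlap. It also fell in VP64_Ctrl at 12 h by 0.55 log2 (adjusted p = 0.0283, up to 0.138 with a library left out). UQCRQ, which binds ubiquinone, fell in VP64_Ctrl at 24 h by 0.70 log2 (adjusted p = 0.015), from 94.5, 89.6 and 66.6 to 54.5, 48.9 and 51.0 normalised CPM. The UQCRQ call was lost without replicate 1 at 0 h or replicate 2 at 24 h (adjusted p up to 0.0659). UQCRC1 rose at 12 h in VP64_Ctrl, from 400, 486 and 401 to 654, 577 and 711 normalised CPM (0.59 log2, SE 0.20, adjusted p = 0.0264), but was at -0.01 log2 on the TPM scale. In VP64_A it rose from 369, 460 and 374 to 614, 462 and 762 (0.61, SE 0.20, adjusted p = 0.0288) and was at 0.30 log2 on the TPM scale, not called. Each UQCRC1 call held in 2 of 6 fits with a library left out (adjusted p up to 0.0963 and 0.197). The Rieske protein UQCRFS1 was called once, in GLIS3 CRISPRko at 24 h (-0.66 log2, adjusted p = 0.0424), where its libraries overlapped.

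Complex IV gave 3 calls in all, each in GLIS3 CRISPRko. COX7C, an abundant small subunit, fell by 0.59 log2 at 12 h (adjusted p = 0.0158) and by 0.54 at 24 h (adjusted p = 0.0386), and COX6B1, which joins the dimer on the outer face, fell by 0.55 at 24 h (adjusted p = 0.0198). At 24 h the libraries of both genes overlapped those at 0 h. COX4I1 lay between -0.20 and 0.33 log2 over the 12 responses and COX5A between -0.09 and 0.13, with neither called in any. COX6A1, COX7A1 and COX7A2 were called in none either. Their values reached from -0.24 to 0.26 log2 for COX6A1, -0.55 to 0.58 for COX7A1 and -0.12 to 0.16 for COX7A2.

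In complex V, ATP5G1, a gene for subunit c, was the one member called in all 4 groups. It fell at 24 h in each, and also at 12 h in GLIS3 CRISPRko (-0.40 log2, adjusted p = 0.019) and VP64_Ctrl (-0.40, adjusted p = 0.0327, kept in 1 of 6 fits with a library left out). At 24 h it went from 66.4, 61.7 and 65.9 normalised CPM to 47.4, 44.4 and 48.3 in CRISPRko control (-0.46 log2, adjusted p = 0.0207). In GLIS3 CRISPRko ATP5G1 went from 69.7, 78.6 and 60.7 to 47.9, 54.6 and 50.7 (-0.45, adjusted p = 0.0139). It went from 81.4, 77.6 and 75.9 to 56.2, 49.6 and 61.6 in VP64_Ctrl (-0.48, adjusted p = 0.0151). The fourth group, VP64_A, went from 92.5, 72.4 and 87.0 to 63.2, 60.7 and 58.3 (-0.47, adjusted p = 0.0212). In each group every 24 h library lay under every 0 h library. The margin was narrow, since the ATP5G1 call held in 1 of 6 fits with a library left out in CRISPRko control (adjusted p up to 0.0707) and in 2 of 6 in VP64_A (up to 0.119).

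The second subunit c gene, ATP5G2, had its low point at 12 h. In CRISPRko control ATP5G2 was at 100, 112 and 102 normalised CPM at 0 h, 61.1, 67.4 and 72.5 at 12 h and 100, 96.3 and 86.1 at 24 h. It fell by 0.64 log2 at 12 h (adjusted p = 0.00855, lost without replicate 1 at 12 h, adjusted p = 0.0534). In VP64_A it fell by 0.64 log2 at 12 h as well (adjusted p = 0.0134, lost without replicate 1 at 0 h or replicate 2 at 12 h, up to 0.0973). ATP5G3 fell in GLIS3 CRISPRko at 24 h, from 441, 405 and 273 to 258, 191 and 210 normalised CPM (-0.76 log2, SE 0.19, adjusted p = 0.00434), with no overlap, and the call held with each library left out. Over the 12 responses, 6 values of ATP5G3 were below 0 and 6 above.

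Outside the ring, ATP5H, subunit d of the stator, was at 62.6, 68.6 and 54.6 normalised CPM in CRISPRko control at 0 h and at 38.2, 40.2 and 48.6 at 12 h. ATP5H fell by 0.55 log2 (adjusted p = 0.032), without overlap, and the call held in 2 of 6 fits with a library left out (adjusted p up to 0.128). ATP5D, subunit δ of the rotor, fell in VP64_A at 24 h from 80.4, 67.5 and 81.2 to 51.4, 53.2 and 45.2 (-0.62 log2, SE 0.17, adjusted p = 0.0116). The ATP5D libraries did not overlap, and the call was lost without replicate 3 at 24 h (adjusted p = 0.0812). ATP5O fell in GLIS3 CRISPRko at 24 h from 131, 124 and 95.8 to 84.5, 73.7 and 87.9 (-0.51 log2, SE 0.14, adjusted p = 0.0135), without overlap.

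The catalytic pair of ATP synthase gave different values. ATP5A1 fell in GLIS3 CRISPRko at 24 h by 0.70 log2 (SE 0.23, adjusted p = 0.033), with overlapping libraries, and ATP5B was called in no response, its values lying between -0.50 and 0.57 log2. The ratio of ATP5B to ATP5A1 in TPM was 1.02 ± 0.06 (SD, n = 3) at 0 h and 1.70 ± 0.07 at 12 h in CRISPRko control. It went from 1.16 ± 0.08 to 1.53 ± 0.19 in GLIS3 CRISPRko, from 1.16 ± 0.11 to 1.74 ± 0.15 in VP64_Ctrl and from 1.04 ± 0.14 to 1.56 ± 0.09 in VP64_A. The 3 ratios at 12 h lay above the 3 at 0 h in each group. The pair and time were chosen after the values were seen and were not tested. ATPIF1, which inhibits the reverse reaction of ATP synthase and is no member, fell in GLIS3 CRISPRko by 0.52, 0.72 and 0.71 log2 at the 3 times.

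A relative of one member showed a change of another order. NDUFA4 is a subunit of complex IV despite its name, and C15orf48 (a gene of chromosome 15 that RefSeq calls COXFA4L3) encodes a small paralogue known to take its place in inflamed cells. C15orf48 had 6, 5, 8 and 8 reads over the 3 libraries at 0 h in CRISPRko control, GLIS3 CRISPRko, VP64_Ctrl and VP64_A, and 2761, 5370, 2071 and 1832 reads at 24 h. In CRISPRko control its mean was 0.755 TPM at 0 h, 135 at 6 h, 409 at 12 h and 514 at 24 h, while NDUFA4 stood at 142, 126, 91.4 and 124 TPM. The level of C15orf48 was thus close to that of NDUFA4 at 6 h in all groups, with mean ratios of 1.06, 1.26, 1.29 and 0.994. At 24 h it exceeded it, with ratios of 4.19 ± 0.48 (SD, n = 3) in CRISPRko control, 4.48 ± 1.04 in GLIS3 CRISPRko, 3.5 ± 0.46 in VP64_Ctrl and 3.51 ± 0.50 in VP64_A.

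The rise of C15orf48 in CPM from 0 to 24 h was 687-fold in CRISPRko control (95% counting interval 315 to 1874), 910-fold in GLIS3 CRISPRko (390 to 2804), 454-fold in VP64_Ctrl (230 to 1052) and 450-fold in VP64_A (228 to 1043). These intervals cover counting error only. In the edgeR fits its difference lay between 6.97 and 9.70 log2 in the 12 responses, and all were called, as were 96 of 96 alternative fits and 72 of 72 fits with a library left out. At 24 h it ranked 2, 2, 13 and 6 among all genes by fold change in the same order of groups. NDUFA4 itself was called in no response. Its lowest value was -0.46 log2 at 12 h in CRISPRko control (adjusted p = 0.0903). No comparison between the groups called C15orf48.

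**Figure D4:**
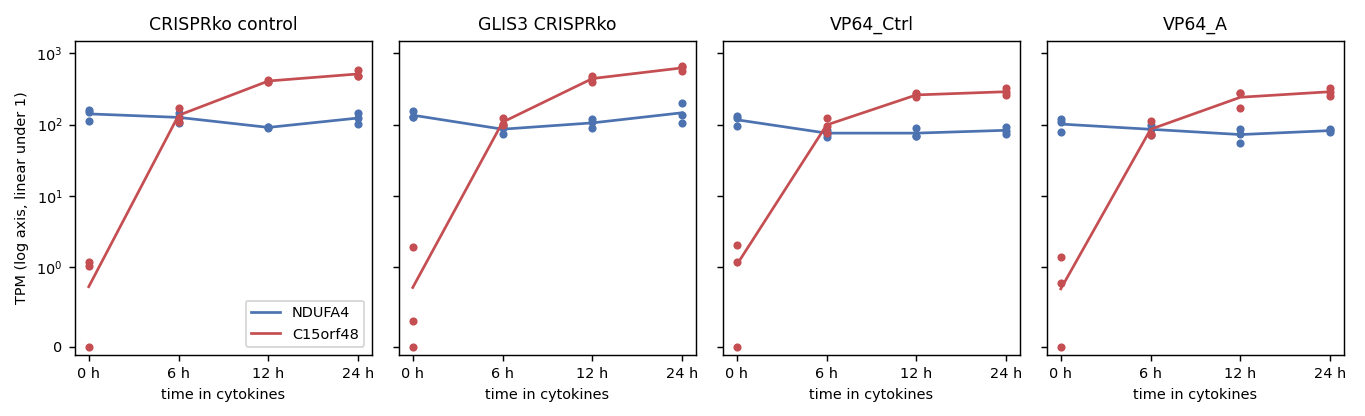
TPM of C15orf48 and of NDUFA4 (y axis, linear near 0 and logarithmic above) by hours with TGFβ and IL-1β (x axis) in the 4 groups, with 1 point per library and lines at the means. NDUFA4 stays near 100 TPM while C15orf48 goes from about 1 TPM at 0 h to 290 to 625 TPM at 24 h.

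The study asked what GLIS3 does in the cytokine response of fibroblasts, and the members were therefore compared between the guides at each time. Between GLIS3 CRISPRko and control, edgeR called 0 members at 0 h (0.301% of all genes called), 0 at 6 h (0.319%), 0 at 12 h (0.0821%) and 0 at 24 h (0.21%). At an unadjusted p under 0.05 there were 14, 5, 10 and 1 members, against 1253, 1228, 842 and 1096 of all 10962 genes. Of these members 14, 2, 9 and 0 were higher in GLIS3 CRISPRko. DESeq2 called 1, 0, 0 and 0 members, against 117, 176, 39 and 36 of all genes. The members' median was 0.17, -0.02, 0.14 and -0.05 log2 at the 4 times, against 0.02, -0.03, -0.00 and 0.02 for all genes. Without the libraries that stood apart, 4 members were called higher in GLIS3 CRISPRko at 0 h, and none at the other times. Leaving out replicate 3 of GLIS3 CRISPRko at 0 h alone gave 1.

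Averaged over the 4 times, 2 members were higher in GLIS3 CRISPRko (3.07% of all genes called). COX6A1, a small subunit of complex IV, ran from 68.9 to 98.1 normalised CPM (median 81.2) in the 12 control libraries and from 91.3 to 137 (median 103) in the 12 GLIS3 CRISPRko libraries. The ranges overlapped at their edges, with a difference of 0.34 log2 (SE 0.08, adjusted p = 0.0085). NDUFA1 ran from 31.6 to 53.7 (median 43) in the control libraries and from 39.7 to 75.8 (median 57.0) in the GLIS3 CRISPRko libraries, a difference of 0.44 log2 (SE 0.09, adjusted p = 0.00226). Neither COX6A1 nor NDUFA1 was called on the TPM scale without centring, and both were with it.

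Between VP64_A and VP64_Ctrl, 2 members were lower at 0 h (9.41% of all genes called), and 0 were called at 6 h (3.76%), 12 h (4.31%) and 24 h (4.13%). At the later times 5, 5 and 7 members had an unadjusted p under 0.05, against 1487, 1619 and 1641 of all 10980 genes. DESeq2 called 1, 1 and 0 members, against 449, 483 and 492 of all genes. Without replicate 1 of VP64_A at 12 h edgeR called 2 there. ATP5I, subunit e of the ATP synthase dimer, was at 32.6, 8.80 and 16.3 normalised CPM in VP64_A and 39.7, 40.4 and 26.5 in VP64_Ctrl at 0 h (-0.86 log2, SE 0.26, adjusted p = 0.0313). One VP64_A library overlapped the VP64_Ctrl libraries. SDHD was at 50.3, 41.9 and 45.3 in VP64_A and 56.8, 66.9 and 68.4 in VP64_Ctrl, with no overlap (-0.48 log2, SE 0.15, adjusted p = 0.0368). The call of SDHD was lost in 5 of 6 fits with a library left out (adjusted p up to 0.146) and without the libraries that stood apart, where 1 member stayed called. The count of 2 at 0 h ran from 0 to 5. It was 5 without replicate 1 of VP64_A, 0 without its replicate 2 or 3 or replicate 2 of VP64_Ctrl, and 1 without replicate 1 or 3 of VP64_Ctrl.

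Averaged over the 4 times, 5 members were higher and 1 lower in VP64_A (18.4% of all genes called, which is above the members' share). UQCRH, the hinge protein of complex III, ran from 67.8 to 127 normalised CPM (median 96.6) in VP64_Ctrl and from 85.6 to 160 (median 130) in VP64_A, a difference of 0.40 log2 (SE 0.08, adjusted p = 0.00063). The other members higher in VP64_A were ATP5A1 (0.35 log2), NDUFS8 (0.32), ATP5O (0.29), the stalk protein of ATP synthase, and ATP5G1 (0.24). SDHD was lower by 0.36 log2 (SE 0.08, adjusted p = 0.000884), with 44.9 to 68.4 normalised CPM in VP64_Ctrl and 34 to 50.3 in VP64_A. On the log2(TPM + 1) scale the split was 2 higher and 7 lower, and after centring 6 higher and 1 lower. The epithelial marker KRT14, at up to 85.3 CPM, made up nearly all of the higher marker sum in VP64_A, while CDH1, KRT5 and KRT20 were under 1 CPM in every library and EPCAM was at 0. Its part in these differences was not tested.

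**Figure D5:**
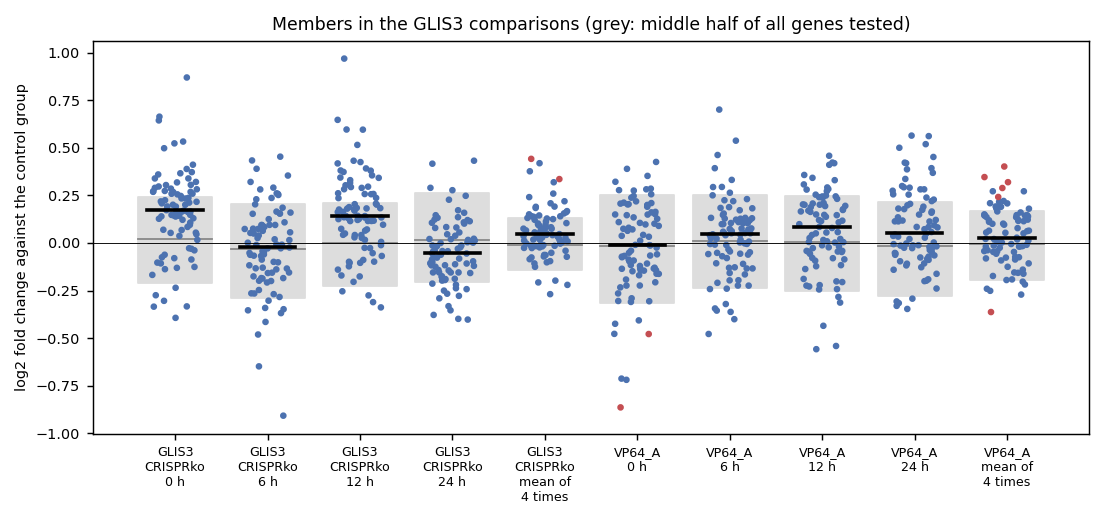
Log2 difference (y axis) of each of the 86 members between GLIS3 CRISPRko and control, and between VP64_A and VP64_Ctrl, at 0, 6, 12 and 24 h and averaged over the times (x axis), with blue points for members not called, red for called members, a black bar at the members' median and a grey band for the middle 50% of all genes. Most points lie within 0.5 of 0, and the red points are 2 members at 0 h in the CRISPRa arm and 2 and 6 in the averages.

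Over these 8 comparisons 665 of 688 values lay within 0.5 log2 of no difference. The guides' effect on the response itself, the difference of 2 responses, was tested for 6 and 24 h. In the CRISPRko arm edgeR called 0 members at 6 h (0.00912% of all genes called) and 0 at 24 h (0% of all genes called). At an unadjusted p under 0.05 there were 5 and 6 members, against 869 and 616 of all genes. In the CRISPRa arm edgeR called 0 members at 6 h (0.0911%) and 0 at 24 h (0.209%). There 0 and 5 members had an unadjusted p under 0.05, against 1035 and 781 of all genes. DESeq2 called 0 members in each of the 4. Without replicate 1 of VP64_A at 0 h, 2 members were called for 24 h in the CRISPRa arm. The members' median difference was -0.18 and -0.23 log2 in the CRISPRko arm, against -0.06 and -0.00 for all genes, and 0.03 and 0.08 in the CRISPRa arm, against 0.04 and 0.00. The larger number of calls in GLIS3 CRISPRko than in its control is therefore not shown to be a difference between them for any single member.

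Other mitochondrial gene lists gave a setting for these values. The background for genes that fell is the share of all genes called lower at 6, 12 and 24 h. It was 5.6, 8.27 and 3.73% in CRISPRko control and 10.8, 13 and 6.78% in GLIS3 CRISPRko. In VP64_Ctrl it was 12.6, 11.5 and 5.57%, and in VP64_A 5.93, 7.1 and 4.55%. All genes called higher are given above as numbers or shares. Of 76 mitochondrial ribosomal protein genes, which serve the mitochondrially encoded subunits, 8, 4 and 0 fell at 6, 12 and 24 h in CRISPRko control, 24, 20 and 5 in GLIS3 CRISPRko, 15, 15 and 6 in VP64_Ctrl and 9, 9 and 12 in VP64_A. Their median was negative throughout, from -0.09 to -0.44 log2, and in each library that stood apart their share of counts, at 0.322 to 0.502%, was the highest of its condition. Of 42 further assembly factors, 3, 4 and 0 fell in CRISPRko control, 9, 10 and 3 in GLIS3 CRISPRko, 8, 8 and 1 in VP64_Ctrl and 3, 2 and 0 in VP64_A. At 12 h in GLIS3 CRISPRko the largest of these changes were in BCS1L (-1.0 log2), which inserts the Rieske protein, FOXRED1 (-0.91), a complex I factor, and COA1 (-0.83).

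Of 17 genes of pyruvate dehydrogenase and the citric acid cycle, 5 fell at 12 h in GLIS3 CRISPRko, led by FH (-1.29 log2, SE 0.17, adjusted p = 5.9e-07), OGDH (-0.72) and PDHB (-0.71). FH, fumarase, also fell at 12 h in CRISPRko control (-0.89, adjusted p = 0.000285) and in VP64_Ctrl (-0.61, adjusted p = 0.00368) and was not called in VP64_A. In the other 11 responses of that list 0 to 3 fell. Of 31 genes of import and cristae, at most 4 fell in any response except VP64_A at 24 h, where 6 fell, and at most 5 rose. Of the 11 regulators of mitochondrial biogenesis that were tested, GABPB1, a partner of the ETS factor GABPA, rose at 6 h in CRISPRko control (1.21 log2), GLIS3 CRISPRko (0.95), VP64_Ctrl (0.69) and VP64_A (0.97). TFB1M, which modifies the mitochondrial 12S RNA, fell at 6 h in CRISPRko control (-1.06), GLIS3 CRISPRko (-1.37) and VP64_A (-1.18). Of 10 subunits and carriers outside the naming rule, at most 2 fell and at most 3 rose in any response. CYCS, cytochrome c, rose at 6 h in GLIS3 CRISPRko (0.71), VP64_Ctrl (0.84) and VP64_A (0.80).

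Genes of glycolysis and of the cytosolic ribosome were also compared between the CRISPRa groups, where 18.4% of all genes were called. Averaged over the 4 times, 17 of 21 genes of glycolysis and lactate were higher in VP64_A than in VP64_Ctrl (median 0.62 log2), led by PDK1 (1.74 log2, SE 0.16), which holds pyruvate back from the citric acid cycle, ALDOC (1.47) and PGK1 (1.20). Of 77 cytosolic ribosomal protein genes 38 were higher (median 0.33). In the same comparison 6 of 86 respiratory chain members were called, with a median of 0.02 log2. The difference between these lists was not tested. In the CRISPRko arm, averaged over the times, 0 of 20 genes of glycolysis were called by edgeR. Over time, at most 3 of the glycolysis genes fell and at most 6 rose in any response, and the cytosolic ribosomal genes had 9 lower in GLIS3 CRISPRko and 6 lower in VP64_A at 24 h and at most 4 called in any other.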

How the data were processed

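The authors sequenced RNA of 48 libraries. Per the study's methods, Trim Galore and SortMeRNA were run before alignment (STAR, GRCh38) and quantification (Salmon). The authors deposited estimated counts per gene, not normalized between libraries, and TPM, scaled by Salmon for transcript length and to one total per library. Versions and the counting strand are not given in the sources used here. All 48 columns matched a sample (0 unmatched). Where a near copy of a gene exists, Salmon splits the reads, which makes both values uncertain.

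Estimated counts were rounded and fitted per arm (24 libraries, 8 groups) with edgeR 4.0.16 in R 4.3.3: TMM, filterByExpr (minimum count 10, minimum total 15) and the two-sided quasi-likelihood F test, with Benjamini-Hochberg adjustment over all genes tested. Totals of 2321990 to 10661004 counts limit the precision of low genes such as NDUFA3. Alternatives were each library left out, a replicate block, DESeq2 1.42.0 as the test, its size factors alone, all genes without a count filter, and limma (version 3.58.1) with TPM on a log2 scale after adding 1 or 0.1. Leaving out the 4 libraries that stood apart and centring TPM were added after seeing the data. The rule took the most deviant library of a condition if its root-mean-square deviation was over 0.4. Replicate 1 of GLIS3 CRISPRko at 24 h, at 0.411, was second in its condition and was kept.

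Members, lists and rules were chosen with earlier results of these data known. Genes named were up to 5 called, non-overlapping members with the largest change per comparison and direction. Chosen subunits of each complex were named as well (NDUFS1, NDUFV1, SDHA, SDHB, UQCRC1, UQCRFS1, COX4I1, COX5A, ATP5A1, ATP5B). So were members with isoform partners, the extremes of level, and up to 3 called genes per list. Other genes were named after their values were seen. The values of 1 member are not reported here by themselves.

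Among 48 replicate pairs 0 were identical, and chi-square per degree of freedom was at least 3.59. Replicate numbers are shared between groups, but same-numbered libraries did not deviate together: of 20 pairs of conditions 0 had every correlation over 0.1 (range -0.226 to 0.412), so no pairing was used.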

Additional observations from a re-analysis of the deposited data

How the results depend on the processing

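With 3 libraries a condition, members with changes of 0.4 to 0.6 log2 lay near the threshold. Of 57 named calls, 15 held with any 1 library left out, 31 under all 8 alternatives and 12 under both. UQCRC1 at 12 h in VP64_Ctrl turned to -0.0144 log2 under both TPM scales. Numbers of members called (CRISPRko control, GLIS3 CRISPRko, VP64_Ctrl and VP64_A at 6, 12 and 24 h against 0 h) changed as follows, and the causes were not tested. Calls over all genes were counted for the main and the DESeq2 fits alone, so the other counts have no background beside them. On log2(TPM + 1) and log2(TPM + 0.1), CRISPRko control gave 1 and 1 at 6 h and 1 and 1 at 24 h, GLIS3 CRISPRko 61 and 60, 24 and 23, and 2 and 2, VP64_Ctrl 79 and 78, 73 and 72, and 47 and 39, and VP64_A 7 and 7 at 12 h and 13 and 13 at 24 h. VP64_A against VP64_Ctrl gave 15 and 11 at 0 h and 1 and 1 at 6 h, and GLIS3 CRISPRko against control over the times 0 and 0. With centred TPM, VP64_Ctrl at 6 h gave 7 and VP64_A against VP64_Ctrl at 0 h gave 1. Without the 4 libraries that stood apart, CRISPRko control at 12 h gave 16, GLIS3 CRISPRko 24 at 6 h and 25 at 12 h, VP64_Ctrl at 24 h 13, GLIS3 CRISPRko against control at 0 h 4 and VP64_A against VP64_Ctrl at 0 h 1. DESeq2 gave 1 for GLIS3 CRISPRko against control at 0 h and 1 for VP64_A against VP64_Ctrl at 6 and at 12 h. With no filter on low counts, GLIS3 CRISPRko against control gave 2 at 0 h and 1 at 12 h, CRISPRko control at 24 h 1, VP64_Ctrl at 12 h 3, VP64_A against VP64_Ctrl at 0 h 1 and the difference of the 24 h responses in the CRISPRa arm 2. DESeq2 size factors left all 26 counts within 1.5 times.

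With a replicate block, VP64_A against VP64_Ctrl at 6 h gave 1, and the other 25 counts stayed within 1.5 times. With 1 library left out at a time, the counts ran from 4 to 5, 4 to 9 and 0 to 2 in CRISPRko control, 6 to 18, 6 to 18 and 4 to 28 in GLIS3 CRISPRko, 1 to 7, 0 to 5 and 3 to 13 in VP64_Ctrl, and 2 to 6, 3 to 9 and 3 to 15 in VP64_A. The fewest in GLIS3 CRISPRko at 12 and 24 h (6 and 4) came without replicate 1 at 0 h, and the most in VP64_A at 24 h (15) without replicate 2 at 0 h. GLIS3 CRISPRko against control ran from 0 to 1 at 0 h, VP64_A against VP64_Ctrl from 0 to 5 at 0 h and 0 to 2 at 12 h, and the difference of the 24 h responses in the CRISPRa arm from 0 to 2.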
